A study of Mus musculus with 13 samples.

Results

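The 7 genes described here encode substrates of the kinase AKT: the glycogen synthase kinases Gsk3a and Gsk3b, the forkhead transcription factors Foxo1, Foxo3 and Foxo4, the transcription factor Creb1, and Cdkn1b, which encodes the cyclin-dependent kinase inhibitor p27. They were given by symbol and matched to the 37636 gene rows of the table, in which each of the 7 symbols had 1 row. Each reached the mean of 1 FPKM over all libraries that was asked of a gene before testing, as did 13905 genes in all. FPKM are fragments scaled by gene length and by the mapped fragments of the library, so that levels can be set side by side between genes of different length.

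The libraries were made from brain RNA of male Balb/c mice aged 6 to 8 weeks, with no region of the brain named. Con is the normal condition without 6-OHG (4 libraries). Mod is an altitude of 8000 m for 24 h without 6-OHG (5 libraries), and the 6-OHG group had the same exposure with 6-OHG, which the labels name only by this code and without a dose, route or time (4 libraries). No group received 6-OHG in the normal condition, so its values can be read only on the background of altitude. The labels do not state whether each replicate is a mouse of its own; if not, the p-values cover technical spread between samples only.

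AKT is activated downstream of insulin, growth factor and neurotrophin receptors, and it acts on these proteins by phosphorylation. Phosphorylation by AKT inhibits both GSK3 kinases, moves FOXO factors out of the nucleus where 14-3-3 proteins hold them, promotes transcription by CREB, and keeps p27 in the cytoplasm. In brain, GSK3 is known for phosphorylating tau, CREB for genes of neuronal activity and memory, FOXO factors for stress resistance and apoptosis, and p27 for cell cycle exit. RNA levels such as these say nothing of phosphorylation.

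Per library, FPKM added up to 268208 to 312908, and transcripts of the mitochondrial genome took 20.6% to 28.7% of the sum. The depth of sequencing is unknown, and with it the counting error of each value. The 10 general neuron markers, such as Snap25 and Map2, were present in every library, with summed levels of 1230 to 1260 FPKM in Con, 1100 to 1190 in Mod and 1060 to 1210 in 6-OHG. Con replicate 4 and 6-OHG replicate 2 had the lowest mean correlation with the rest of their groups (0.9686 and 0.9631 across genes). Differences are between group means of log2(FPKM + 1), which understates the fold of genes at low levels. A gene is called when its adjusted p is under 0.05, where the p is from limma's moderated linear model over all 13 libraries, adjusted by the Benjamini-Hochberg method over all 13905 genes.

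Promoters from RefSeq (GRCm38.p6), 250 bases before to 50 after the start site, were matched for 6 of the 7 genes. The stretches before the start sites of Gsk3b (chr16:38088751-38089000, + strand) and Cdkn1b (chr6:134920151-134920400, + strand) are shown because these are the members whose called differences came with groups that did not overlap. Both are rich in G and C (62.0% and 64.4%).
Gsk3b: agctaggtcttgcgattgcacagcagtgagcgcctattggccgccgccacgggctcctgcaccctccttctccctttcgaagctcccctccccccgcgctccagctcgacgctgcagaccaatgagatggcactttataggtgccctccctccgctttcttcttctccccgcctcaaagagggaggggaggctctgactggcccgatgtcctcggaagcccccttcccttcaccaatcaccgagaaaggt
Cdkn1b: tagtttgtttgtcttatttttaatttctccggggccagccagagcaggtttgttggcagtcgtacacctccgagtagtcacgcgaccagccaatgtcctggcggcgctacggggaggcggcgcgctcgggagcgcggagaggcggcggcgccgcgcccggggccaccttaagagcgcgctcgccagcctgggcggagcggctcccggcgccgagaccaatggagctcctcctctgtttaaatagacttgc
The core of the cAMP response element that CREB recognizes, TGACG, was searched on both strands because Creb1 is itself a member. It was found in 3 of the 6 promoters, each time as CGTCA on the gene's strand, against 20.8% of all 32851 promoters of this length. Windows of 30 bases with the match in capitals are from chr7:25237912-25237941 (- strand), chr10:42276742-42276771 (- strand) and chr6:134920410-134920439 (+ strand).
Gsk3a: tgcagcgcgagcCGTCAcaccccgccccca
Foxo3: gacccgccccgcCGTCAtcctaggttgagg
Cdkn1b: catcttcttcttCGTCAgcctcccttccac
The matches begin 78 and 64 bases before the start site in Gsk3a and Foxo3 and, counting the start site as 1, at base 22 in Cdkn1b. The full element TGACGTCA (1.79% of all promoters, and an occurrence of it also holds TGACG), the forkhead motif GTAAACA (3.65%) and ACGTG, the core of the hypoxia response element (19.6%), were found in 0 of the 6. A match is a description of the letters, not a bound site.

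Some steps in the order of the 7 transcripts by level held in every library, and others did not. Per length, Gsk3a was the most abundant with a mean of 59.6 FPKM over the 13 libraries, followed by Gsk3b (18.8), Cdkn1b (10.6), Foxo3 (9.2), Foxo4 (5.49), Creb1 (4.23) and Foxo1 (3.37). Gsk3a stood above Gsk3b, Gsk3b above Cdkn1b, and Foxo3 above Foxo4 in 13 of 13 libraries. Cdkn1b and Foxo3 overlapped in their ranges in all 3 groups, with Cdkn1b higher in 10 of 13 libraries. Creb1 and Foxo1 overlapped in all 3 groups too, with Creb1 higher in 9 of 13, and Foxo4 and Creb1 overlapped in the 6-OHG group alone. The highest library was 1.16 times the lowest for Gsk3a and 2.57 times for Foxo1, the narrowest and widest spans of the 7.

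**Figure D1:**
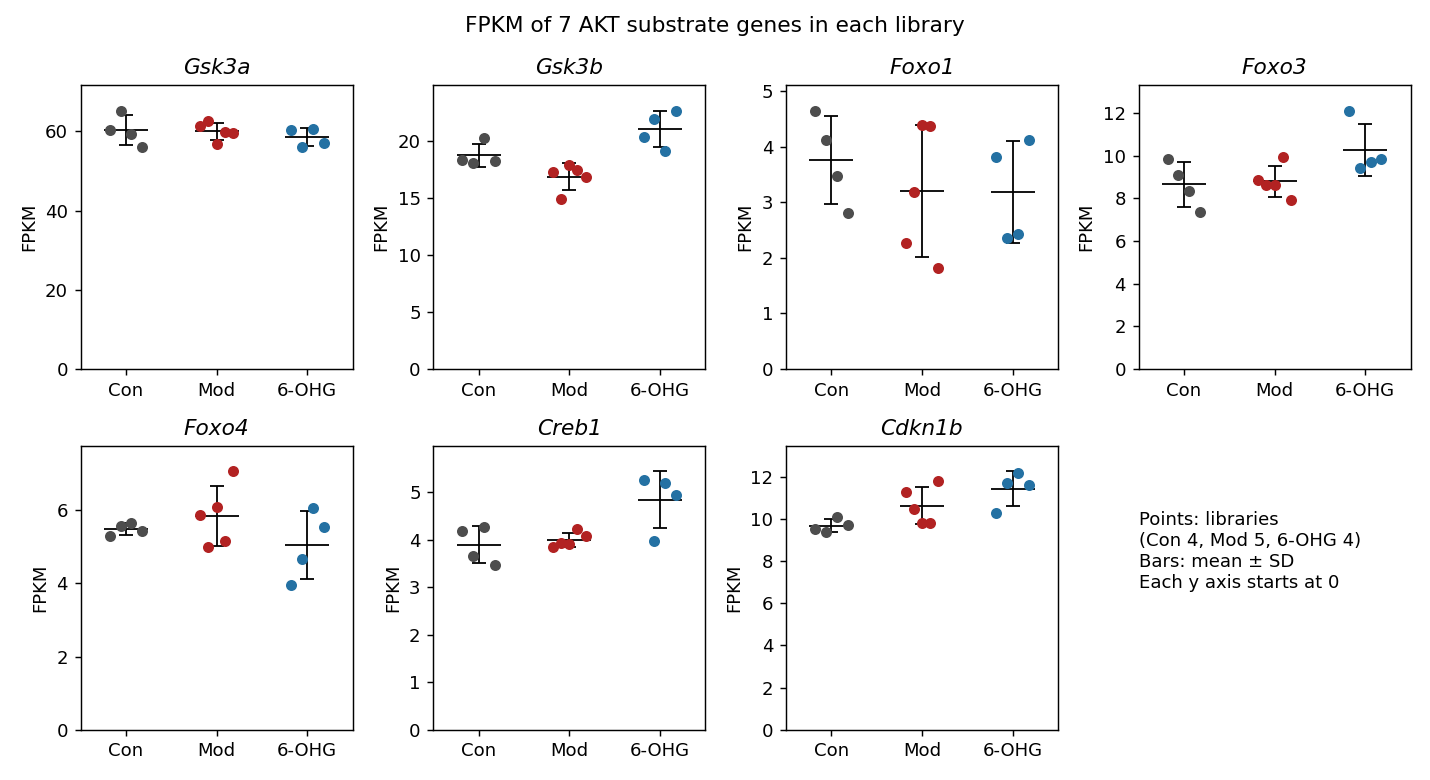
FPKM (y axes from 0) of each of the 7 genes in each library of Con (4), Mod (5) and 6-OHG (4); points are libraries and bars the mean ± SD. All 4 Gsk3b values with 6-OHG (19.2 to 22.7) lie above the 5 of Mod (14.9 to 17.9), whereas the Foxo1 groups overlap over most of their range.

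Whether altitude changed these transcripts is answered by Mod against Con, and whether 6-OHG changed them at altitude by 6-OHG against Mod. The third comparison, 6-OHG against Con, sets exposure with the compound against the normal condition. In Mod against Con 0 of the 7 members were called by limma (1 had an unadjusted p under 0.05), where 23.8% of all genes tested were called. In 6-OHG against Mod 1 of 7 was called (Gsk3b, higher), where 15.3% of all genes were. In 6-OHG against Con 2 of 7 were called (Creb1 and Cdkn1b, both higher), where 30.7% of all genes were. These shares of the members are near or below the background, so the group of 7 as a whole is not set apart from other genes by its number of calls. The comparisons share libraries, Mod in the first pair, Con in the first and last, and 6-OHG in the last pair. Their values are therefore not independent.

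**Figure D2:**
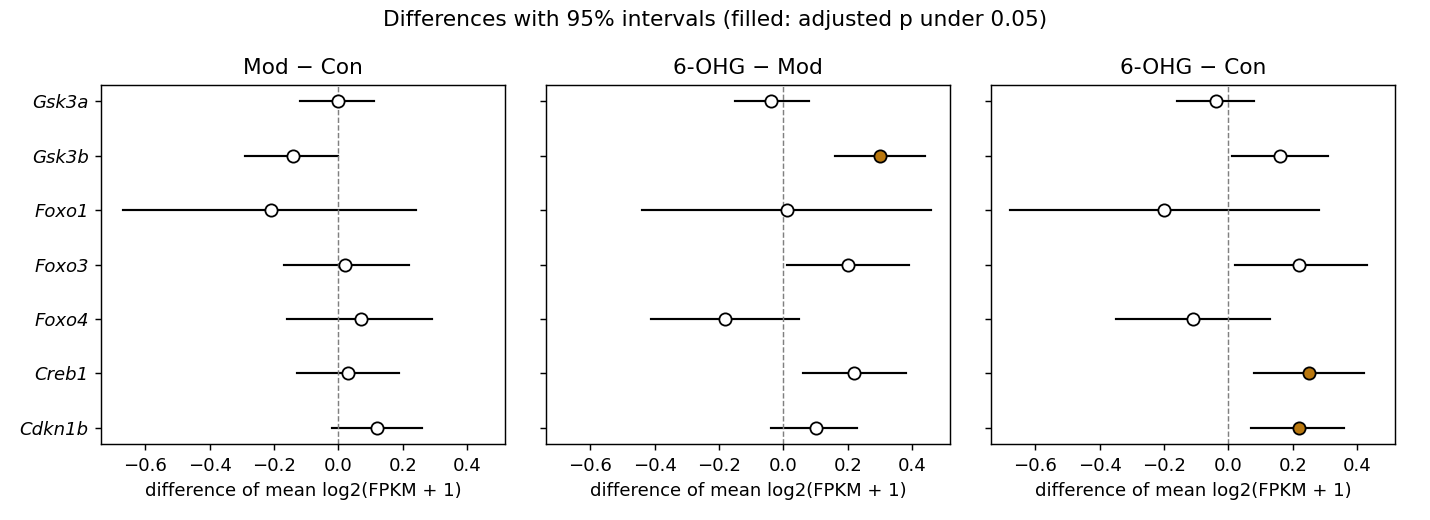
Difference of mean log2(FPKM + 1) (x axes) with its 95% interval for the 7 genes (rows) in the 3 comparisons (panels); filled points have an adjusted p under 0.05. Gsk3b at 0.30 in 6-OHG against Mod and Creb1 at 0.25 and Cdkn1b at 0.22 in 6-OHG against Con are filled, and the Foxo1 intervals are the widest.

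Of the GSK3 kinases, which share most of their substrates, Gsk3b was called in 1 comparison and Gsk3a in 0 of 3. Gsk3b (ENSMUSG00000022812, chr16:38089001-38246084 on GRCm38, + strand, protein coding) was measured at 18.4, 18.1, 20.3 and 18.3 FPKM in Con, at 17.3, 14.9, 17.9, 17.5 and 16.9 in Mod, and at 20.4, 22.0, 19.2 and 22.7 in 6-OHG. All 5 Mod libraries were below all 4 Con libraries, and all 4 libraries with 6-OHG were above all 5 Mod libraries; the Con and 6-OHG groups overlapped through Con replicate 3. Gsk3b rose with 6-OHG at altitude, from 16.9 ± 1.2 (SD, n = 5) to 21.1 ± 1.59 FPKM (SD, n = 4), a log2 difference of 0.30 (SE 0.066, 95% interval 0.16 to 0.44, limma adjusted p = 0.0102). Against Con (18.8 ± 1.02, SD, n = 4), Mod differed by -0.14 (SE 0.066, 95% interval -0.29 to -0.00, adjusted p = 0.135) and 6-OHG by 0.16 (SE 0.07, 95% interval 0.01 to 0.31, adjusted p = 0.106), neither of them called. Of all genes, 22.4% had groups without overlap in Mod against Con (8.87% with Mod lower). In 6-OHG against Mod they were 15.9%, with 7.6% higher and 8.34% lower with 6-OHG.

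The Gsk3b difference in 6-OHG against Mod kept its call when each library was left out in turn (0.26 to 0.34, adjusted p 0.0106 to 0.0357). It was 0.16 with an adjusted p of 0.0821 once the trend of values on exon length and GC was taken out of each library. Gsk3b has 9831 bases of exon, where the median gene tested has 4102.5, and differences in this comparison rose with exon length over 13894 genes (r = 0.362, rho = 0.457). Of the 2321 genes with 8 kb of exon or more, 484 were called higher and 18 lower (20.9% higher), and their median difference was 0.123. Among genes under 4 kb, 126 were called higher and 983 lower.

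Gsk3a (ENSMUSG00000057177, chr7:25228258-25237851, - strand, protein coding), with 2900 bases of exon, was the steadiest of the 7. It was measured at 60.4, 65.2, 59.4 and 56.0 FPKM in Con, at 61.4, 62.5, 56.9, 59.8 and 59.5 in Mod, and at 60.4, 56.0, 60.6 and 57.1 in 6-OHG. The 3 groups overlapped. The means were 60.2 ± 3.79 (SD, n = 4), 60.0 ± 2.12 (SD, n = 5) and 58.5 ± 2.31 (SD, n = 4), and no comparison called a difference: Mod against Con had a 95% interval of -0.12 to 0.11, 6-OHG against Mod of -0.15 to 0.08, and 6-OHG against Con of -0.16 to 0.08 (limma adjusted p = 0.977, 0.695 and 0.631). The sign of each of these near-zero differences changed under other scalings.

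The ratio of Gsk3a to Gsk3b within a library does not depend on how that library was scaled. It was 3.28, 3.61, 2.93 and 3.05 in Con, 3.55, 4.21, 3.18, 3.41 and 3.52 in Mod, and 2.96, 2.54, 3.16 and 2.52 in 6-OHG. Every library with 6-OHG was below every Mod library. The log2 ratio differed by -0.35 between 6-OHG and Mod (exact two-sided permutation test, p = 0.0159, the smallest that 4 against 5 libraries can give), by 0.15 between Mod and Con (exact p = 0.159) and by -0.20 between 6-OHG and Con (exact p = 0.143). After adjustment over the 9 ratio tests made here the values were 0.143, 0.238 and 0.238 by the exact test, and 0 of the 9 passed. With the length and GC trend removed the log2 ratio of 6-OHG against Mod differed by -0.05.

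Partners and substrates of GSK3 were described as separate lists. These lists and those below were chosen with earlier results of these data known. Their counts beside the share of all genes are therefore a description and not a test. Of 20 tested genes of GSK3 partners and the Wnt pathway, 0 were called higher and 1 lower in Mod against Con. In 6-OHG against Mod 3 were higher and 1 lower, and in 6-OHG against Con 2 were higher and 1 lower. That is 5.0%, 20.0% and 15.0% of the list, beside 23.8%, 15.3% and 30.7% of all genes. Btrc, a subunit of the ubiquitin ligase that recognizes phosphorylated beta-catenin, fell at altitude by 0.28 (3.63 ± 0.162 to 2.82 ± 0.246 FPKM, adjusted p = 0.0057) and rose with 6-OHG by 0.29 (3.65 ± 0.23 FPKM, adjusted p = 0.0087). Apc, a scaffold of the destruction complex, rose with 6-OHG by 0.49 (adjusted p = 0.0203), and Lrp6, a Wnt coreceptor, by 0.25 (adjusted p = 0.0112), while Frat1, a GSK3 binding protein, fell by 0.31 (adjusted p = 0.0267). With the length and GC trend removed 0 genes of this list were called in either direction in 6-OHG against Mod. The fall of Frat1 was also not called with equal sums or without any 1 of Mod replicates 1, 3 and 5 and 6-OHG replicates 1, 3 and 4.

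Of 20 tested GSK3 substrates, 2 were called higher and 1 lower in Mod against Con. In 6-OHG against Mod 1 was higher and 3 lower, and in 6-OHG against Con 2 were higher and 4 lower. The share called was below that of all genes in Mod against Con (15.0% beside 23.8%) and above it in 6-OHG against Mod (20.0% beside 15.3%). In 6-OHG against Con it was just under the 30.7% of all genes. Mapt, which encodes tau, fell from 52.7 ± 2.57 FPKM in Con to 41.3 ± 1.08 in Mod (by 0.34, adjusted p = 0.000284) and was at 41.8 ± 1.03 with 6-OHG (lower than Con by a log2 difference of -0.32, adjusted p = 0.000473). Gys1, the glycogen synthase for which the kinases are named, rose at altitude by 0.41 (adjusted p = 0.0116). Dpysl2, the microtubule regulator CRMP2, fell with 6-OHG against Mod by 0.55 (29.8 ± 4.17 to 20.0 ± 2.63 FPKM, adjusted p = 0.00504). With the length and GC trend removed 0 substrates were higher and 2 lower in that comparison, and with equal sums 1 was lower. The 4 lower in 6-OHG against Con were 2 with equal sums and 1 without 6-OHG replicate 1. They were also 2 without any 1 of Con replicates 1, 3 and 4 and 6-OHG replicates 3 and 4.

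Of the FOXO factors none was called in any comparison by limma at the settings used here; 0 of the 9 tests passed and 2 of them, both of Foxo3, had an unadjusted p under 0.05. Foxo3 (ENSMUSG00000048756, chr10:42181841-42276755, - strand, protein coding), the most abundant of the 3, was measured at 9.82, 9.07, 8.35 and 7.37 FPKM in Con, at 8.86, 8.63, 8.6, 9.92 and 7.94 in Mod, and at 12.1, 9.41, 9.69 and 9.85 in 6-OHG. The 6-OHG libraries were mostly high, with replicate 1 the highest of all, but they overlapped both other groups. The means were 8.65 ± 1.04 (SD, n = 4), 8.79 ± 0.718 (SD, n = 5) and 10.3 ± 1.25 (SD, n = 4). Mod differed from Con by 0.02 (SE 0.089, adjusted p = 0.88), 6-OHG from Mod by 0.20 (SE 0.089, 95% interval 0.01 to 0.39, adjusted p = 0.147) and 6-OHG from Con by 0.22 (SE 0.094, 95% interval 0.02 to 0.43, adjusted p = 0.0864). The last of these was called with the length and GC trend removed (0.26, adjusted p = 0.0385) and with the striatum markers as a covariate (0.29, adjusted p = 0.02), and in no other setting tried.

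Foxo1 (ENSMUSG00000044167, chr3:52268336-52353221, + strand, protein coding), the factor best known for metabolic control by insulin, varied most between replicates. It was measured at 4.65, 4.13, 3.47 and 2.81 FPKM in Con, at 2.26, 3.18, 4.4, 4.38 and 1.81 in Mod, and at 3.82, 2.35, 2.43 and 4.12 in 6-OHG. Replicates 3 and 4 were the highest of Mod and replicates 1 and 5 the lowest, and all 3 groups overlapped. The means were 3.77 ± 0.799 (SD, n = 4), 3.21 ± 1.19 (SD, n = 5) and 3.18 ± 0.92 (SD, n = 4), and the differences were -0.21 (SE 0.21) for Mod against Con, 0.01 (SE 0.21) for 6-OHG against Mod and -0.20 (SE 0.22) for 6-OHG against Con (limma adjusted p = 0.499, 0.977 and 0.519). With 95% intervals as wide as -0.67 to 0.24, -0.44 to 0.46 and -0.68 to 0.28, changes of a size called in other members could not have been told from replicate spread.

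The replicate spread of Foxo1 ran with markers of the striatum. The mean log2(FPKM + 1) of 10 striatal genes, among them the dopamine receptors Drd1 and Drd2, was 4.89, 4.74, 4.52 and 4.12 in Con, 3.39, 4.57, 5.14, 5.08 and 2.97 in Mod, and 4.81, 2.41, 3.54 and 4.82 in 6-OHG. In each group the libraries fell in the same order by this mean as by Foxo1. Over the 13 libraries the correlation was 0.92 (rho = 0.95), 0.96 without the 2 libraries farthest from the median marker level, and 0.93 for deviations from the group means; this is a description, the largest of 112 relations between members and marker lists, and the points share the scaling of their library. The summed FPKM of the list ranged from 278 to 493 in Con, 116 to 630 in Mod and 70.6 to 502 in 6-OHG, and 0 of the 10 markers were called in any comparison. With the striatum mean as a covariate, an alternative added after the data were seen, the SE of Foxo1 in Mod against Con dropped from 0.21 to 0.09 and its differences were -0.09, 0.13 and 0.04 in the 3 comparisons (adjusted p = 0.473, 0.321 and 0.788). In RNA of whole tissue, fewer cells of a type and less RNA per cell cannot be told apart, and the part of the dissected region in these values was not tested.

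Foxo4 (ENSMUSG00000042903, chrX:101254528-101260873, + strand, protein coding) was measured at 5.29, 5.58, 5.65 and 5.42 FPKM in Con, at 5.87, 5.0, 6.09, 5.16 and 7.06 in Mod, and at 3.95, 4.68, 6.06 and 5.53 in 6-OHG. Con was tight, and the other 2 groups spread to both sides of it. The means were 5.49 ± 0.163 (SD, n = 4), 5.84 ± 0.825 (SD, n = 5) and 5.06 ± 0.93 (SD, n = 4). The differences were 0.07 (SE 0.1) for Mod against Con, -0.18 (SE 0.1) for 6-OHG against Mod and -0.11 (SE 0.11) for 6-OHG against Con (limma adjusted p = 0.687, 0.269 and 0.471).

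Of the 16 marker lists, Foxo3 and Foxo4 each ran closest with the markers of oligodendrocytes, in opposite directions. Other lists ran with them less closely. Foxo3 had r = -0.73 with oligodendrocyte precursor markers, -0.7 with astrocyte markers and -0.64 with hippocampus markers. Foxo4 had r = 0.63 with hypothalamus markers, 0.58 with hippocampus markers and 0.57 with precursor markers. The mean log2 level of 12 oligodendrocyte genes, Mbp among them, correlated with Foxo3 at r = -0.88 (rho = -0.83; -0.80 without the 2 farthest libraries) and with Foxo4 at r = 0.71 (rho = 0.53; 0.49 without them), over 13 libraries as a description. The library with the highest Foxo3 and the lowest Foxo4, 6-OHG replicate 1, had the lowest marker mean of all (5.05). Con replicate 4 had the highest marker mean (6.44) and the lowest Foxo3, and Mod replicate 5 had the next highest (6.28) and the highest Foxo4. The summed markers ranged from 1380 to 1840 FPKM in Con, 948 to 2170 in Mod and 771 to 1420 in 6-OHG. Of the 12, 4 were called lower in 6-OHG against Con (Mag, Opalin, Ugt8a and Ermn), 0 in 6-OHG against Mod, and 1 in Mod against Con (Ugt8a); their part in the Foxo3 and Foxo4 values was not tested.

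**Figure D3:**
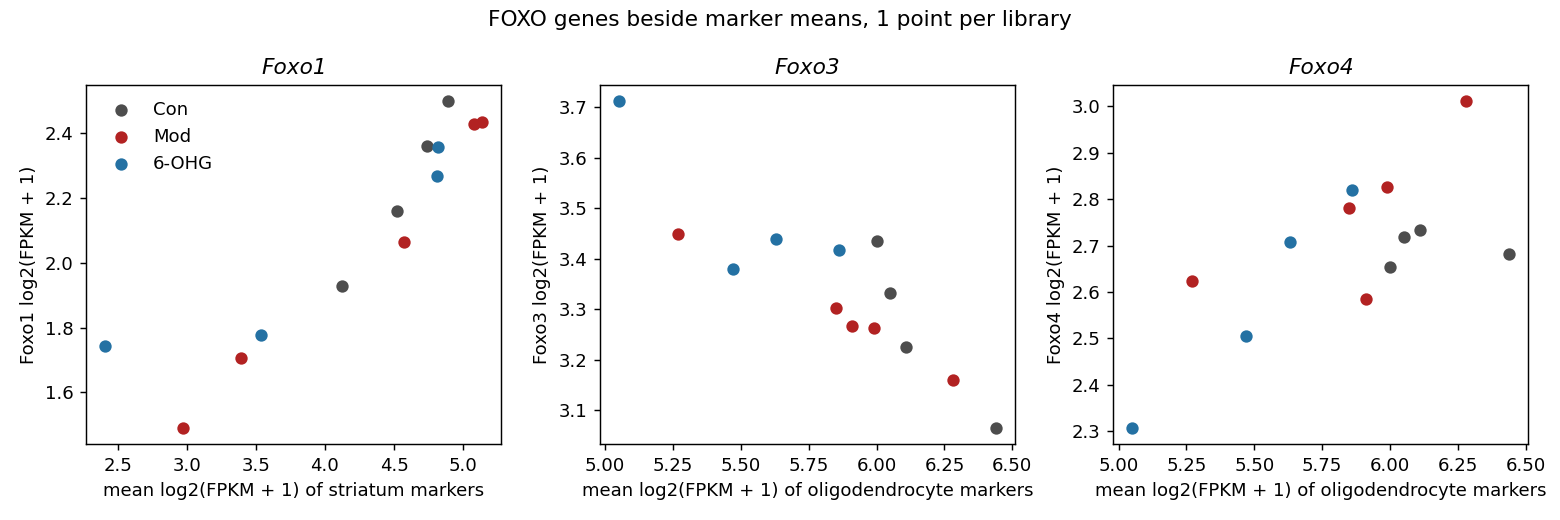
Foxo1 against the mean of striatum markers, and Foxo3 and Foxo4 against the mean of oligodendrocyte markers, all in log2(FPKM + 1), with 1 point per library colored by group. Foxo1 rises with the striatum mean in all 3 groups (r = 0.92), and Foxo3 falls as the oligodendrocyte mean rises (r = -0.88).

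The summed FPKM of the 3 FOXO genes was 17.9 ± 1.8 in Con, 17.8 ± 1.33 in Mod and 18.5 ± 1.56 in 6-OHG. Foxo3 made up 48.2% ± 1.04 of that sum in Con, 49.3% ± 3.07 in Mod and 55.5% ± 4.56 in 6-OHG, and Foxo1 made up 20.9%, 17.7% and 17.0%. The ratio of Foxo1 to Foxo3 was 0.432 ± 0.0413 in Con and 0.308 ± 0.0792 with 6-OHG, a log2 difference of -0.51 (exact permutation p = 0.0857, adjusted 0.238; 4 against 4 libraries cannot go below 0.0286). The ratio of Foxo4 to Foxo3 was 0.642 ± 0.0839, 0.672 ± 0.142 and 0.502 ± 0.129 in Con, Mod and 6-OHG, and 6-OHG differed from Mod by -0.44 on the log2 scale (exact permutation p = 0.111, adjusted 0.238). Foxo6, the FOXO factor of neurons that is not among the 7, was lower with 6-OHG than in Con, at 1.62 ± 0.413 against 3.11 ± 0.69 FPKM (a log2 difference of -0.65, adjusted p = 0.00511, with no overlap of the groups).

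Among genes that act on FOXO proteins, calls fell in both directions. Of the 19 tested FOXO regulators, 2 were called higher and 2 lower in Mod against Con, 4 higher and 1 lower in 6-OHG against Mod, and 7 and 3 in 6-OHG against Con. Of all genes tested, 14% were called higher and 9.81% lower at altitude. With 6-OHG, 6.98% were higher and 8.35% lower than in Mod, and 16.3% higher and 14.4% lower than in Con. These splits move with the scaling: of all called genes 58.7%, 45.5% and 53.2% were higher in the 3 comparisons, against 40.6%, 77.7% and 58.7% with equal sums and 50.6%, 73.1% and 64.2% with equal sums of genes not encoded in mitochondria, and the second share was 57.5% with quantile normalization. Xpo1, the exportin that carries FOXO proteins out of the nucleus, fell at altitude by 0.52 (13.2 ± 0.817 to 8.94 ± 0.408 FPKM, adjusted p = 0.0012) and was as low with 6-OHG (8.96 ± 1.46). Sirt1, a deacetylase of FOXO proteins, was higher with 6-OHG than in Con by 0.33 (adjusted p = 0.00401), and Ep300, an acetyltransferase that is also a CREB coactivator, was higher with 6-OHG than in Mod by 0.33 (adjusted p = 0.00182). Once the length and GC trend was removed, the 7 called higher in 6-OHG against Con became 2, and the 4 higher and 1 lower in 6-OHG against Mod became 1 and 0. The 4 were also 1 or 2 without any 1 library other than Con replicate 4 and Mod replicate 4.

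Of the 7 genes for 14-3-3 proteins 6 were tested. Ywhag and Ywhaq fell at altitude, by 0.28 and 0.31 (adjusted p = 0.0164 and 0.0082), and these and Ywhae were lower with 6-OHG than in Con. In 6-OHG against Mod 0 of the 6 were called by limma, and 1 (Ywhae, adjusted p = 0.139) had an unadjusted p under 0.05. The median differences over the 6 were -0.08, -0.08 and -0.16, beside 0.0138, -0.0208 and 0.00337 over all genes tested.

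Of 40 genes listed as FOXO targets 32 were tested. Calls in either direction took 40.6%, 18.8% and 75.0% of them in the 3 comparisons, beside 23.8%, 15.3% and 30.7% of all genes. In Mod against Con 13 were called higher and 0 lower, with a median difference of 0.17; in 6-OHG against Mod 5 were higher and 1 lower (median 0.04), and in 6-OHG against Con 19 were higher and 5 lower (median 0.33). Bnip3, a mitochondrial protein of mitophagy, rose from 41.8 ± 1.53 to 107 ± 2.3 FPKM at altitude (1.33 on the log2 scale, adjusted p = 6.61e-08) and was at 95.1 ± 10.4 with 6-OHG. Angpt2, a ligand of the endothelial receptor TIE2, rose from 0.479 ± 0.165 to 10.1 ± 1.83 FPKM (2.90, adjusted p = 5.88e-06). Pik3ip1, an inhibitor of PI3K, rose by 0.89 (adjusted p = 0.000105) and Klf15, a transcription factor, by 0.70 (adjusted p = 0.000898). Bnip3 and Angpt2 are also known hypoxia-inducible genes, and membership in this list does not show which factor acts on a gene. Against Mod, the 5 higher with 6-OHG became 2 and the 1 lower became 0 with the length and GC trend removed. The count of 13 was 7 with equal sums (and 2 lower) and 8 without Con replicate 2, without Mod replicate 4 or without Mod replicate 5, and the 5 lower in 6-OHG against Con were 0 without 6-OHG replicate 1, 3 without Con replicate 2 or Con replicate 4, and 2 without 6-OHG replicate 4. Of 11 tested endothelial markers 6 were called higher and 3 lower in Mod against Con while their summed level ranged from 74.2 to 87.6 FPKM in Con and 73.6 to 84.5 in Mod; their part in these counts was not tested.

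**Figure D4:**
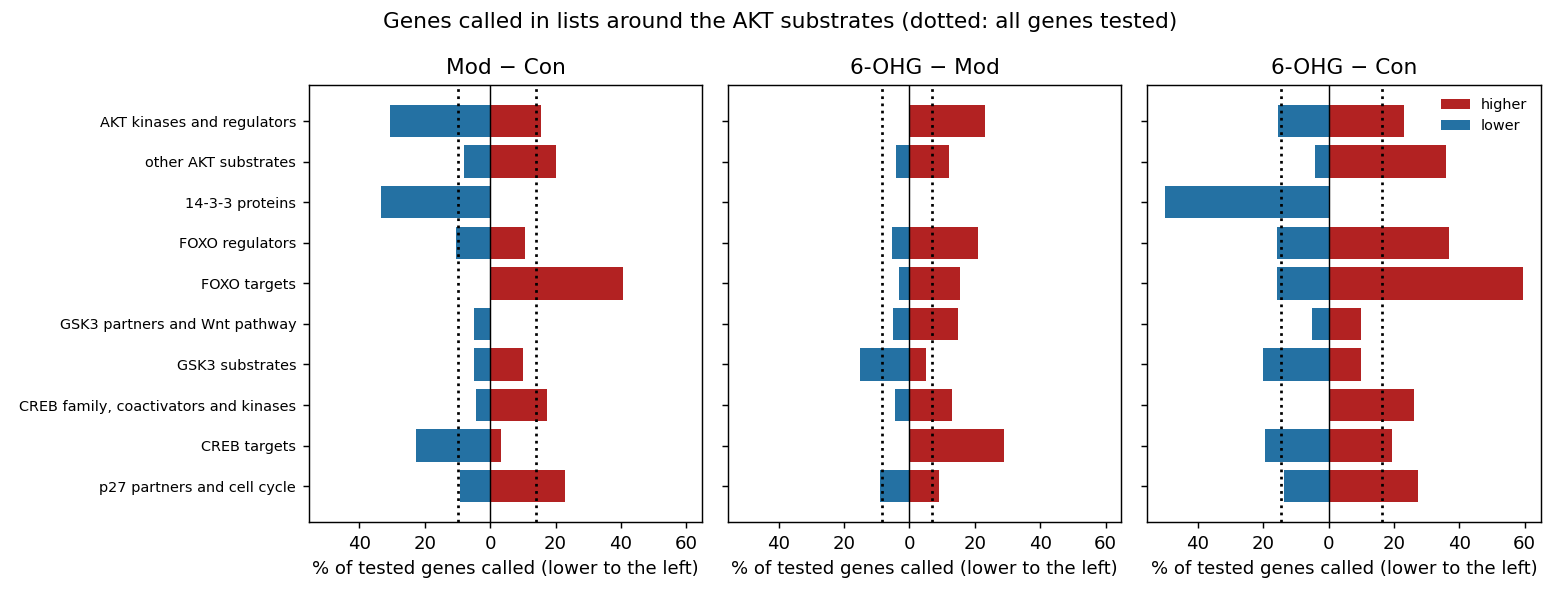
Percent of tested genes called higher (red, to the right) and lower (blue, to the left) in 10 lists of genes around the AKT substrates, in the 3 comparisons; dotted lines give the percent of all 13905 genes called in each direction. FOXO targets have 13 of 32 higher and 0 lower in Mod against Con. CREB targets have 7 of 31 lower in Mod than in Con and 9 of 31 higher with 6-OHG than in Mod. The lists were chosen with earlier results of these data known, so the distance from the dotted lines is a description and not a test.

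Creb1 (ENSMUSG00000025958, chr1:64532645-64604548, + strand, protein coding), the transcription factor of cAMP and calcium signaling, was measured at 4.19, 3.66, 4.28 and 3.48 FPKM in Con, at 3.84, 3.94, 3.91, 4.22 and 4.08 in Mod, and at 5.26, 3.98, 5.2 and 4.95 in 6-OHG. Replicates 1, 3 and 4 of 6-OHG were above every other library, and replicate 2 lay among the Con and Mod values. Creb1 was higher with 6-OHG than in Con, at 4.85 ± 0.595 (SD, n = 4) against 3.9 ± 0.393 FPKM (SD, n = 4), a log2 difference of 0.25 (SE 0.08, 95% interval 0.08 to 0.42, limma adjusted p = 0.0305). Mod, at 4.0 ± 0.154 FPKM (SD, n = 5), differed from Con by 0.03 (SE 0.076, 95% interval -0.13 to 0.19, adjusted p = 0.813), and 6-OHG differed from Mod by 0.22 (SE 0.076, 95% interval 0.06 to 0.38, adjusted p = 0.0663).

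The call against Con was lost without Con replicate 2 (adjusted p = 0.0765), Con replicate 4 (0.0777), 6-OHG replicate 1 (0.0849), 6-OHG replicate 3 (0.0779) or 6-OHG replicate 4 (0.0653), and with the length and GC trend removed (0.12, adjusted p = 0.221); Creb1 has 13742 bases of exon, the most of the 7. Without 6-OHG replicate 2 the difference from Mod was called (0.30, adjusted p = 0.0112).

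Companions of Creb1 were called about as often as other genes. Of 23 tested genes of the CREB family, its coactivators and its kinases, 4 were higher and 1 lower in Mod against Con, 3 higher and 1 lower in 6-OHG against Mod, and 6 and 0 in 6-OHG against Con. In either direction 21.7%, 17.4% and 26.1% of the list were called, beside 23.8%, 15.3% and 30.7% of all genes. The 4 at altitude were 1 with equal sums, and 2 without Con replicate 3, and the 6 higher in 6-OHG against Con were 4 with the length and GC trend removed; the median exon length of the list is 8187 bases. Crtc2, a coactivator that binds CREB, rose at altitude by 0.31 (5.8 ± 0.209 to 7.46 ± 0.393 FPKM, adjusted p = 0.00113), and so did Crebbp, the CREB-binding acetyltransferase, by 0.27 (adjusted p = 0.00416). Sik2, a kinase that keeps the CRTC coactivators in the cytoplasm, fell at altitude from 2.75 ± 0.553 to 1.77 ± 0.127 FPKM (by 0.42, adjusted p = 0.00427) and rose with 6-OHG to 2.96 ± 0.127 (0.51, adjusted p = 0.00304). Camkk1, a kinase upstream of the CREB kinase CaMKIV, was higher with 6-OHG than in Con by 0.39 (adjusted p = 0.0012). It was also called higher in Mod against Con and was not called in 6-OHG against Mod.

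Of 31 tested CREB targets, 1 was called higher and 7 lower in Mod against Con (median -0.21). In 6-OHG against Mod 9 were higher and 0 lower (median 0.32), and in 6-OHG against Con 6 higher and 6 lower (median 0.06). Called in either direction were 25.8%, 29.0% and 38.7% of the list, beside 23.8%, 15.3% and 30.7% of all genes. Pcsk1, a prohormone convertase, fell at altitude from 7.27 ± 0.689 to 3.77 ± 0.451 FPKM (by 0.79, adjusted p = 2.49e-05) and rose with 6-OHG to 5.71 ± 0.325 (0.50, adjusted p = 0.00194). Vgf, a neurotrophin-inducible secreted peptide precursor, fell at altitude from 50.9 ± 8.27 to 31.4 ± 3.39 FPKM (by 0.67, adjusted p = 0.000644) and was at 29.0 ± 1.85 with 6-OHG. Bdnf, a neurotrophin, fell at altitude by 0.74 (2.83 ± 0.724 to 1.3 ± 0.447 FPKM, adjusted p = 0.00699). Per1, a clock gene, was at 11.2 ± 1.79 FPKM in Con, 14.2 ± 1.4 in Mod and 19.5 ± 1.68 with 6-OHG. It was the 1 target called higher at altitude, a call lost with equal sums, and it rose further with 6-OHG against Mod by 0.43 (adjusted p = 0.0153). The 9 higher in 6-OHG against Mod were 4 without Mod replicate 2, 6-OHG replicate 3 or 6-OHG replicate 4, 5 without 6-OHG replicate 1, and 14 without both Con replicate 4 and 6-OHG replicate 2, and the 7 lower in Mod against Con were then 12; the 6 higher in 6-OHG against Con were 3 without Con replicate 2 or 6-OHG replicate 4. Penk and Tac1 of this list are also among the striatum markers and Sst among the inhibitory neuron markers; Sst and the inhibitory marker Slc32a1 were both called lower in 6-OHG against Con. Markers of the hypothalamus moved the other way: of 6 tested, 4 were higher in Mod against Con and 4 lower in 6-OHG against Mod, with summed levels of 5.95 to 79.9 FPKM in Con, 72.4 to 132 in Mod and 2.99 to 43.4 in 6-OHG, and their part in these counts was not tested.

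Cdkn1b (ENSMUSG00000003031, chr6:134920401-134925513, + strand, protein coding) was measured at 9.55, 9.4, 10.1 and 9.72 FPKM in Con, at 11.3, 10.5, 9.82, 9.8 and 11.8 in Mod, and at 10.3, 11.7, 12.2 and 11.6 in 6-OHG. Con was tight, all 4 libraries with 6-OHG were above all 4 of Con, and Mod overlapped both. Cdkn1b was higher with 6-OHG than in Con, at 11.4 ± 0.783 (SD, n = 4) against 9.7 ± 0.305 FPKM (SD, n = 4), a log2 difference of 0.22 (SE 0.068, 95% interval 0.07 to 0.36, limma adjusted p = 0.0284). Mod, at 10.7 ± 0.903 FPKM (SD, n = 5), differed from Con by 0.12 (SE 0.064, adjusted p = 0.194), and 6-OHG from Mod by 0.10 (SE 0.064, adjusted p = 0.345). Of all genes, 28.1% had groups without overlap in 6-OHG against Con, 15.6% with 6-OHG higher.

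The Cdkn1b call was lost without Con replicate 1 (adjusted p = 0.0639), Con replicate 2 (0.0668), 6-OHG replicate 2 (0.0531), 6-OHG replicate 3 (0.0747) or 6-OHG replicate 4 (0.0595), and with the length and GC trend removed (0.15, adjusted p = 0.105). Cdkn1b ran opposite to the striatum mean (r = -0.73, rho = -0.60 over 13 libraries), and with that mean as a covariate the difference from Con was 0.17 (adjusted p = 0.0364). It ran about as closely opposite to the inhibitory neuron markers (r = -0.72), liver transcripts (r = -0.69) and microglia markers (r = -0.67). In 6-OHG against Con 5 of 6 tested liver transcripts and 7 of 10 microglia markers were called lower. Summed liver transcripts, which include Trf and Ttr of the brain's own cells, ranged from 433 to 789 FPKM in Con, 72.2 to 331 in Mod and 46.6 to 392 with 6-OHG. Ttr alone averaged 402, 197 and 174 FPKM in these groups and was called in no comparison. Alb was at 17.4 ± 2.09, 2.95 ± 6.42 and 0.0812 ± 0.0424 FPKM, and Fabp1 at 4.14 ± 0.807, 0.539 ± 1.09 and 0.0. Summed microglia markers ranged from 102 to 114, 80.7 to 95.8 and 65.4 to 95.8. The part of the liver transcripts and microglia markers in the Cdkn1b difference was not tested.

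**Figure D5:**
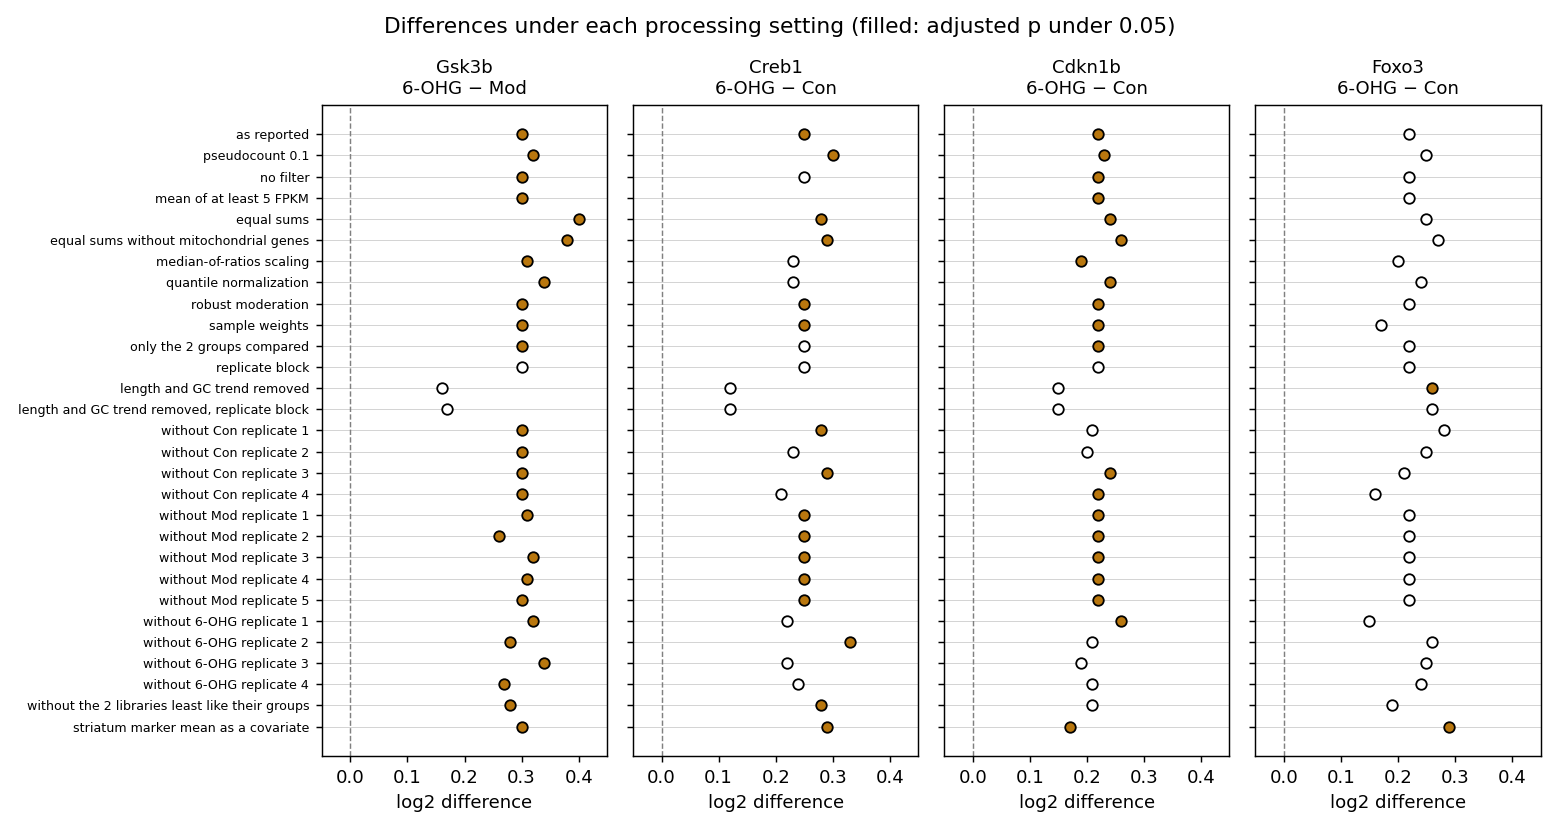
Log2 difference (x axes) of Gsk3b in 6-OHG against Mod and of Creb1, Cdkn1b and Foxo3 in 6-OHG against Con under each setting (rows); filled points have an adjusted p under 0.05, and Creb1 has no point where its mean fell below the 5 FPKM filter. Every point lies above 0, the Gsk3b point is open in 3 of 28 other settings, and the removal of the length and GC trend gives the smallest Gsk3b, Creb1 and Cdkn1b values.

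Of 22 tested partners of p27 and cell cycle genes, 5 were called higher and 2 lower in Mod against Con. In 6-OHG against Mod 2 were higher and 2 lower, and in 6-OHG against Con 6 were higher and 3 lower. As shares these are 31.8%, 18.2% and 40.9%, beside 23.8%, 15.3% and 30.7% of all genes. Cdkn1a, which encodes p21, a relative of p27 that is itself an AKT substrate, rose from 3.72 ± 1.26 to 13.4 ± 1.85 FPKM at altitude (1.64 on the log2 scale, adjusted p = 0.00106) and was at 13.9 ± 8.4 with 6-OHG. Ccne2, a cyclin whose kinase p27 inhibits, was at 2.43 ± 0.337 in Con, 3.3 ± 0.166 in Mod and 4.35 ± 0.597 with 6-OHG, and it was called higher in all 3 comparisons. Skp2, the ubiquitin ligase subunit that targets p27 for degradation, was higher with 6-OHG than in Mod by 0.21 (adjusted p = 0.0435). Stmn1, a microtubule regulator that p27 binds, fell at altitude from 150 ± 5.72 to 119 ± 8.21 FPKM (by 0.33, adjusted p = 0.00175) and further with 6-OHG to 104 ± 3.69 (by 0.20, adjusted p = 0.0321). Against Mod, the 2 genes of this list that were higher with 6-OHG became 1 and the 2 lower, Stmn1 among them, became 0 with the length and GC trend removed. The 2 lower were also 0 with equal sums, without Mod replicate 5 and without 6-OHG replicate 1. The 2 higher, Ccne2 and Skp2, were 0 with no filter and without Mod replicate 2, Mod replicate 3 or 6-OHG replicate 1. Only 1 was higher without any 1 of Con replicates 1, 2 and 3, Mod replicates 1 and 5 and 6-OHG replicates 2 and 4. With equal sums 4 genes of the list were higher.

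Upstream of the 7, the transcripts of AKT kinases and their regulators were called in both directions. Of 13 tested, 2 were higher and 4 lower in Mod against Con. In 6-OHG against Mod 3 were higher and 0 lower, and in 6-OHG against Con 3 were higher and 2 lower. These are 46.2%, 23.1% and 38.5% of the list, beside 23.8%, 15.3% and 30.7% of all genes. Over the 28 other settings the 4 lower at altitude stayed at 3 or 4, whereas the 2 higher ranged from 0 to 3. The 2 higher were 0 with equal sums and without any 1 of Con replicates 1 and 2 and Mod replicates 3, 4 and 5. Akt2 fell at altitude from 11.0 ± 3.17 to 6.36 ± 0.831 FPKM (a log2 difference of -0.67, adjusted p = 0.0164). With 6-OHG it was at 5.44 ± 1.19 (a log2 difference of -0.87 from Con, adjusted p = 0.00412) and was not called against Mod. Rictor, a subunit of the complex that phosphorylates AKT, was called higher in all 3 comparisons, by 0.44 in 6-OHG against Con (adjusted p = 0.00023). Of 25 other AKT substrates, 5 were higher and 2 lower in Mod against Con. In 6-OHG against Mod 3 were higher and 1 lower, and in 6-OHG against Con 9 were higher and 1 lower. Here 28.0%, 16.0% and 40.0% were called, beside the same shares of all genes. Bad, a promoter of apoptosis that AKT inhibits, fell with 6-OHG against Mod by 0.33 (adjusted p = 0.0172), and Nos3, the endothelial nitric oxide synthase, rose at altitude by 0.52 (adjusted p = 0.0043). With the length and GC trend removed 0 of the AKT kinases and regulators and 0 of the other AKT substrates were called in either direction in 6-OHG against Mod, so the fall of Bad was not called there, nor with equal sums.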

How the data were processed

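The authors deposited 1 table of FPKM with a column for each of the 13 libraries. Per the labels' protocols RNA was extracted with Trizol and read in pairs of 150 bases. HISAT2 2.2.1, featureCounts 1.5.0-p3, StringTie 2.1.6, edgeR, DESeq2, FastQC and cutadapt 1.9 are named per the submitters' processing notes, with builds GRCm38 and mm10; which tool gave the FPKM, the annotation, strand and filters are not given in the sources used here. Whole reads could not be recovered from the low values, so no count model was used.

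Symbols (37499 of 37636 IDs), positions, GC content and lengths of exons were read from GENCODE M21 (GRCm38), and promoters from RefSeq (GRCm38.p6). Genes whose mean reached 1 FPKM were fitted as log2(FPKM + 1) in limma 3.58.1 under R 4.3.3, with 1 mean per group and variances moderated with a trend, after a test on simulated data. Within-library ratios had exact permutation tests. The members and lists were chosen with earlier results of these data known. Named are all members, up to 4 genes of each of 10 pathway lists with the smallest p per comparison, and for each member the 3 genes most correlated with it; called marker and 14-3-3 genes named from short counts were taken after their values were seen. The search for AKT motifs in proteins that had been planned was not run. The other settings tried were another pseudocount, 2 filters, 4 scalings, robust moderation, sample weights, only the compared groups, the replicate block, removal of the length and GC trend, each library left out, and 2 added after the data were seen (without the 2 libraries least like their groups, and the striatum markers as a covariate). Figures were drawn with matplotlib 3.10.9.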

Additional observations from a re-analysis of the deposited data

Results flagged for a closer look

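Of 30 groups of libraries examined for a single value far from the rest (each member and each ratio in each group), 2 held one; chance alone flags about 1 group in 20. Gsk3b in Con replicate 3 was at 20.3 FPKM, where the next value was 18.4, a gap of 0.834 of the range of the 4 libraries, past the limit for 4 values. This library alone makes Con overlap the 6-OHG group for Gsk3b. Foxo3 in 6-OHG replicate 1 was at 12.1 FPKM, where the next value was 9.85, a gap of 0.839 of the range; without it Foxo3 in 6-OHG against Con was 0.15 (adjusted p = 0.238) in place of 0.22. The same library had the lowest oligodendrocyte marker mean of all 13 (5.05).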

How the results depend on the processing

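Over the 28 other settings (27 where the filter at 5 FPKM left out Creb1 and Foxo1), Gsk3b in 6-OHG against Mod was called in 25, Cdkn1b in 6-OHG against Con in 19 and Creb1 in 6-OHG against Con in 15, all with their direction kept. Members called with each library left out numbered 0 in Mod against Con, 1 to 2 in 6-OHG against Mod and 0 to 2 in 6-OHG against Con; all genes called numbered 2393 to 3646, 1349 to 2344 and 3424 to 4237. In Mod against Con 1 member was called with median-of-ratios scaling (Gsk3b, -0.18, adjusted p = 0.0467). In 6-OHG against Mod 2 were called with equal sums, with equal sums without mitochondrial genes, with sample weights, without the 2 libraries least like their groups and with the striatum covariate (Creb1 joined: 0.30, 0.29, 0.27, 0.30 and 0.24), and 0 with the length and GC trend removed. In 6-OHG against Con 1 was called with no filter, the 5 FPKM filter, median-of-ratios scaling, only the compared groups, the length and GC trend removed (Foxo3) and without the 2 libraries; the count with quantile normalization was 2 with Gsk3b (0.21, adjusted p = 0.0323) in place of Creb1, and 3 with the striatum covariate. All genes called were 2061 and 2663 in the first and last comparison with the 5 FPKM filter, and 928 in 6-OHG against Mod with the length and GC trend removed. The causes of these shifts were not tested.

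Replicate numbers did not pair the libraries: of 12 same-numbered pairs 3 correlated over 0.1 in their deviations (range -0.483 to 0.346), and 3 of 12 libraries were closest to their own number. With the replicate block 0, 0 and 0 members and 2039, 846 and 3312 genes were called in the 3 comparisons, the block values being 0.30 for Gsk3b (adjusted p = 0.0604), 0.25 for Creb1 (0.0532) and 0.22 for Cdkn1b (0.0597); with the block and the length and GC trend removed, 0, 0 and 0 members and 2159, 33 and 3056 genes.

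Signs turned for differences that were not called. In Mod against Con, Gsk3a was 0.01 with quantile normalization, 0.0001 with the block, 0.0006 with the striatum covariate and up to 0.03 with a library left out (0.03 without Con replicate 2, 0.02 without Mod replicate 3, 0.0001 without Mod replicate 5). Foxo3 was -0.04 with equal sums, sample weights, without the 2 libraries and without Con replicate 4, -0.01 with equal sums without mitochondrial genes and median-of-ratios scaling, and -0.02 without Mod replicate 4. Creb1 was -0.03 with equal sums, -0.02 with sample weights, and -0.01 without Con replicate 4 and without the 2 libraries, and Foxo4 was -0.03 with the block and the length and GC trend removed. In 6-OHG against Mod, Gsk3a was 0.06, 0.05, 0.07, 0.11 and 0.11 with equal sums, those without mitochondrial genes, quantile normalization, and the length and GC trend removed without and with the block; Foxo1 was -0.12 with the block, -0.09 and -0.22 with that trend removed without and with the block, and -0.07, -0.12, -0.06 and -0.09 without Mod replicates 1 and 5 and 6-OHG replicates 1 and 4 (-0.12 to 0.12 over all libraries left out in turn). In 6-OHG against Con, Gsk3a was 0.01, 0.08, 0.08 and 0.08 with equal sums without mitochondrial genes, quantile normalization and the trend removed without and with the block, and Foxo1 was 0.04 with the striatum covariate. With that trend removed the log2 ratio of Gsk3a to Gsk3b was 0.02 in 6-OHG against Con and that of Foxo4 to Foxo3 -0.01 in Mod against Con, which was also -0.03 without Con replicate 1 and -0.06 without Mod replicate 5 (-0.06 to 0.14 over all libraries). Counts of list genes under 5 moved by more than 1.5 times in many settings.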

Other observations

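The genes whose levels ran most like each member were taken over the 13 libraries by the correlation of log2(FPKM + 1), as a description with no test. Beside Foxo1 stood Pde1b (r = 0.970), a phosphodiesterase abundant in striatal neurons, Bcr (0.963) and Bcl11b (0.960), the transcription factor CTIP2 of striatal and deep cortical neurons. Foxo4 ran closest to Mal (0.888), a myelin protein that is also on the oligodendrocyte list, Sox2 (0.886) and Ss18 (0.884). Foxo3 was nearest to Prkab2 (0.924), a subunit of the energy sensor AMPK, Fbxo41 (0.921) and Cux1 (0.919). For Creb1 they were Bdp1 (0.957), a subunit of the RNA polymerase III factor TFIIIB, the chromatin remodeler Smarca2 (0.946) and Tnks2 (0.938), for Gsk3b Tmod2 (0.947), a neuronal tropomodulin, Gm14325 (0.943) and Aff4 (0.941), for Gsk3a Arhgef25 (0.971), Adap1 (0.941) and Igfbp6 (0.919), and for Cdkn1b Itga8 (0.919), Gm48194 (0.882) and Cntrl (0.880).

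Among the members themselves, Foxo3 and Creb1 ran together (r = 0.74 over the 13 libraries), Foxo1 and Cdkn1b in opposite directions (r = -0.73), and so did Foxo3 and Foxo4 (r = -0.66) and Gsk3a and Gsk3b (r = -0.51). Gsk3a ran with the excitatory neuron markers (r = 0.82, rho = 0.74), whose lowest mean log2 level, 4.42 in Con replicate 4, came with one of the lowest Gsk3a values (56.0 FPKM). The points of each relation share the scaling of their library.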
